A study of Canis lupus familiaris with 13 samples.

Results

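Glycogen is the store of glucose that muscle fibres draw on during contraction and refill after feeding. UGP2 makes UDP-glucose, the sugar donor. GYG1 (glycogenin) primes a new chain, GYS1 (muscle glycogen synthase) lengthens it, and GBE1 adds the branches. PYGM, the muscle phosphorylase, releases glucose units again, and STBD1 binds glycogen and is linked to its handling in lysosomes. The PPP1R3 proteins tether protein phosphatase 1 to the glycogen particle, where dephosphorylation switches the synthase on and the phosphorylase off. PPP1R3A is the muscle form, PPP1R3B is best known from liver and is also made in human muscle, and PPP1R3C (also called PTG) and PPP1R3D occur in several tissues.

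The 10 genes described here are these 6 genes of glycogen assembly, breakdown and binding and 4 PPP1R3 targeting subunits, chosen by symbol among the 30951 genes of the deposited table. Each symbol occurred once. Their RNA was measured in biopsies of the biceps femoris, a thigh muscle, from 4 wild type dogs aged 9 to 10 months. Under insulin, each of the 4 dogs gave a sample 1 and a sample 2 (n = 4 libraries each), and dogs 1 and 2 also gave a sample 3 (n = 2). Without insulin, the basal state, dogs 2, 3 and 4 gave a sample 0 (n = 3). The labels state neither the insulin dose nor the time, nor what the sample numbers stand for. Every basal library is a sample 0 and every insulin library is a sample 1, 2 or 3. Insulin therefore cannot be told apart from the sample number or from what that number stands for. The comparisons ask how the transcripts differ between insulin and basal libraries and between the sample numbers, with libraries paired by dog. Dog 1 has no basal library to be paired with. Several libraries of 1 dog are repeat biopsies, so p values reflect the spread within these 4 dogs.

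The 13 libraries held between 45200416 and 81948641 counts. Levels are given in CPM, read counts scaled to a common library size and corrected for library composition, and they are not divided by gene length, so a level is compared between libraries and not between genes. For the 7 of 8 muscle fibre markers found in the table there was a summed level of 220152 to 392909 CPM in insulin libraries and 200954 to 274047 CPM in basal libraries. The sum of 4 liver markers found (of 5) was 1.70 to 14.2 CPM in insulin libraries and 4.22 to 5.77 CPM in basal libraries. ACTA1, the muscle actin, took 18.4% of the counts in dog 1 sample 2 and 10.4% to 13.7% in the other libraries, so the main values of PPP1R3B and PPP1R3C are also given without dog 1 sample 2. Fewer fibres of a type and less RNA per fibre cannot be told apart in these whole biopsies.

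**Figure D1:**
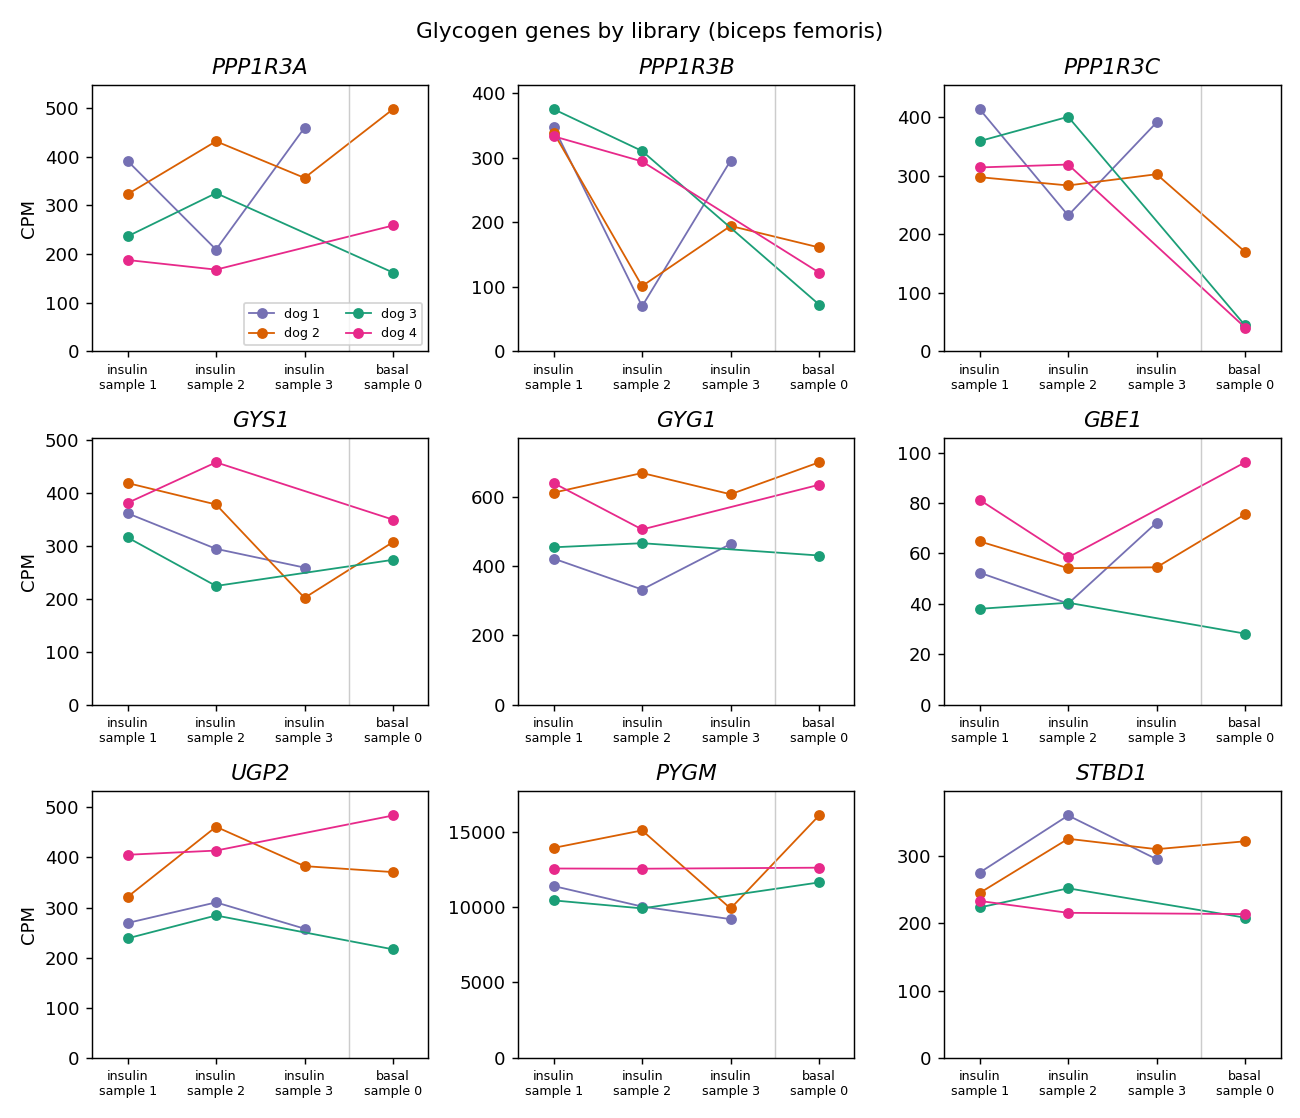
Level (CPM, linear axes starting at 0) of the 9 counted members in each of the 13 libraries, with colours for dogs and lines joining the libraries of 1 dog. PPP1R3C lies at 233 CPM or more in all 10 insulin libraries and at or below 170.24 CPM in the 3 basal libraries, whereas the enzyme genes overlap between insulin and basal.

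PPP1R3C (ENSCAFG00000029146), the subunit of broad tissue range, had the widest separation of the members. In dog 2 it reached 298, 284 and 303 CPM in insulin samples 1, 2 and 3, against 170.24 CPM in the basal library. In dog 3 it reached 360 and 401 CPM in insulin samples 1 and 2, against 44.4 CPM in the basal library. In dog 4 it reached 315 and 320 CPM in insulin samples 1 and 2, against 40.9 CPM in the basal library. Every one of these 7 insulin libraries was above the basal library of its own dog, by 1.67-fold to 9.03-fold, and the smallest ratios were the 3 of dog 2. Dog 1, which has no basal library, had 414, 233 and 392 CPM in insulin samples 1, 2 and 3. The insulin and basal libraries did not overlap, which held for 0.317% of all genes tested in the same direction and for 0.62% in the opposite one. Of all genes tested, 2.69% had every one of the 7 insulin libraries above its own basal library.

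The spread of PPP1R3C differed between the states. Its level varied 1.78-fold from the lowest to the highest of the 10 insulin libraries, and 4.16-fold over the 3 basal libraries. Both ends of the insulin range came from dog 1, in samples 1 and 2. In the basal libraries dog 2 stood above dogs 3 and 4. Each of these dogs gave a single basal library, so dog and biopsy cannot be told apart there. The basal difference was not tested. PPP1R3C averaged 332 ± 58.2 CPM in insulin libraries (SD, n = 10) and 85.2 ± 73.7 CPM in basal libraries (SD, n = 3).

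In the edgeR quasi-likelihood fit with dog as a block, the log2 fold change of PPP1R3C for insulin against basal was 2.06 ± 0.40 (SE), with a 95% interval of 1.20 to 2.91, and it ranked 25 of 14197 genes by p (unadjusted p = 0.000171). Its adjusted p of 0.0971 (Benjamini-Hochberg over all 14197 genes) missed the threshold of 0.05. Without the basal library of dog 2 the log2 fold change was 3.03 and the adjusted p was 0.000317, and without the whole of dog 2 the adjusted p was 0.00384. With any other single library left out, the gene did not pass. Without dog 1 sample 2 its log2 fold change was 2.06 with an adjusted p of 0.0747. DESeq2 called the gene (adjusted p = 4.90e-06), and edgeR on counts summed per dog and state did not (log2 fold change 2.32, adjusted p = 0.795).

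PPP1R3B (ENSCAFG00000006673), the subunit best known from liver, was less even. In dog 3 it reached 375 and 310 CPM in insulin samples 1 and 2, against 72.6 CPM in the basal library. In dog 4 it reached 333 and 294 CPM in insulin samples 1 and 2, against 122 CPM in the basal library. In dog 2 it reached 339, 101.1 and 194 CPM in insulin samples 1, 2 and 3, against 161 CPM in the basal library. Insulin libraries were above their own basal library in 6 of 7 cases, the exception being dog 2 sample 2, and the ratio ranged from 0.628 to 5.16. Dog 1 had 347, 69.9 and 295 CPM in insulin samples 1, 2 and 3. Sample 2 of dogs 1 and 2 gave the 2 lowest insulin values, of which dog 1 lay below and dog 2 within the basal range of 72.6 to 161 CPM.

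PPP1R3B averaged 266 ± 107 CPM in insulin libraries (SD, n = 10) and 119 ± 44.3 CPM in basal libraries (SD, n = 3). Its edgeR log2 fold change was 1.21 ± 0.49 (SE, 95% interval 0.15 to 2.26) and did not pass (unadjusted p = 0.0280, adjusted p = 1.00). Without dog 1 sample 2 the log2 fold change was 1.21 with an adjusted p of 0.488. Without the basal library of dog 2 it was 1.78, and without the basal library of dog 3 it was 0.82.

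PPP1R3A (ENSCAFG00000003339), the muscle subunit, showed no common direction among dogs. In dog 2 it had 323, 432 and 357 CPM in insulin samples 1, 2 and 3, against 498 CPM in the basal library. In dog 3 it had 237 and 325 CPM in insulin samples 1 and 2, against 162 CPM in the basal library. In dog 4 it had 188 and 168 CPM in insulin samples 1 and 2, against 259 CPM in the basal library. Insulin libraries were lower than basal in dogs 2 and 4 and higher in dog 3, with 2 of 7 libraries above their own basal library. Dog 1 had 392, 209 and 460 CPM in insulin samples 1, 2 and 3. The edgeR log2 fold change was -0.12 ± 0.26 (SE, 95% interval -0.69 to 0.45, adjusted p = 1.00).

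PPP1R3D (ENSCAFG00000012333) had 0 counts in all 13 libraries. A count of 0 allows up to 3 counts per library, which is 0.0401 to 0.0692 CPM, and this limit covers counting error only. The gene was not tested, and 9 of the 10 members passed the filter on low counts.

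The make-up of the counted subunits was unlike in the insulin and basal libraries. The counts of PPP1R3A, PPP1R3B and PPP1R3C were expressed as shares of their sum in each library, a measure that is not corrected for length and is followed only between libraries. PPP1R3C made up 31.0% to 45.4% of the subunit counts in insulin libraries (median 36.5%), against 20.5%, 15.9% and 9.69% in the basal libraries of dogs 2, 3 and 4. PPP1R3A made up 21.5% to 52.9% in insulin libraries (median 33.8%), against 60.1%, 58.1% and 61.4% in the basal libraries of dogs 2, 3 and 4. The shares of 1 library add up to a fixed sum, so a higher share of PPP1R3C goes with lower shares of the others, and the level of PPP1R3A itself averaged 309 ± 104 CPM in insulin libraries (SD, n = 10) and 306 ± 173 CPM in basal libraries (SD, n = 3). The share of PPP1R3B overlapped, at 12.4% to 39.9% in insulin libraries and 19.4% to 28.9% in basal libraries. These shares were chosen after the levels were known and are given without a test.

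**Figure D2:**
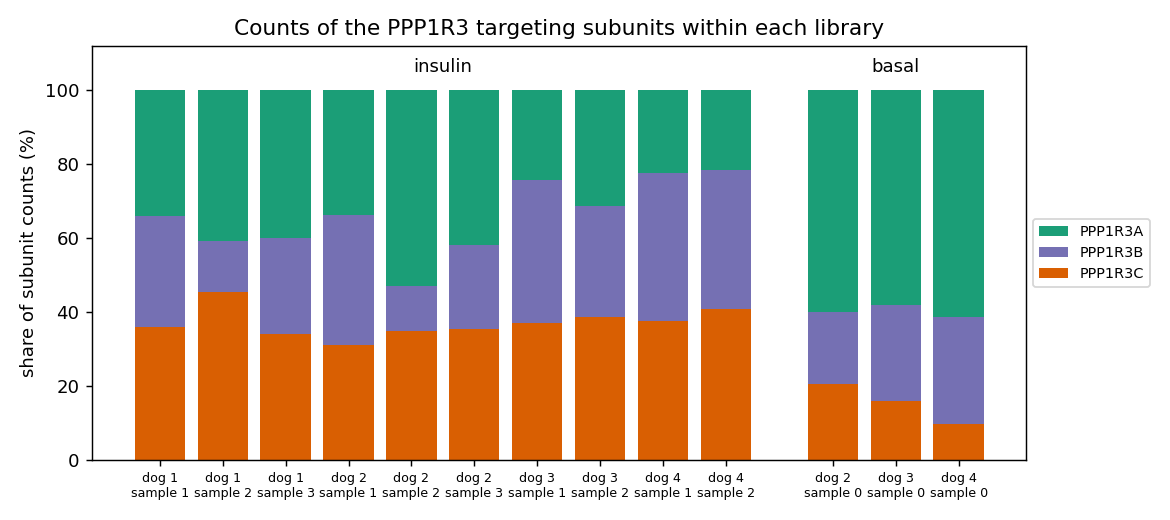
Share of the summed PPP1R3A, PPP1R3B and PPP1R3C counts (%, stacked bars, 1 per library) in the 10 insulin libraries at the left and the 3 basal libraries at the right. PPP1R3C takes 31.0% to 45.4% in the insulin libraries and 9.69% to 20.5% in the basal libraries, and the 3 shares of a bar are tied to 1 sum.

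Genes that build the particle overlapped between the states. GYS1 (ENSCAFG00000003858), the synthase that the subunits act on, had 418, 378 and 202 CPM in dog 2 insulin samples 1, 2 and 3, against 307 CPM in the basal library. In dog 3 it had 316 and 224 CPM in insulin samples 1 and 2, against 273 CPM in the basal library. In dog 4 it had 381 and 457 CPM in insulin samples 1 and 2, against 349 CPM in the basal library. Sample 1 was above basal in all 3 dogs, and the share of all genes with that pattern was not counted. Sample 2 was above basal in dogs 2 and 4 and below it in dog 3. Sample 3 could be set against its own basal library only in dog 2, where it was below. GYS1 averaged 329 ± 84.5 CPM in insulin libraries (SD, n = 10) and 310 ± 38.0 CPM in basal libraries (SD, n = 3), and its log2 fold change was 0.12 ± 0.21 (SE, 95% interval -0.34 to 0.58).

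GYG1 (ENSCAFG00000008249), the primer protein, ranged from 333 to 670 CPM (median 487) in insulin libraries and from 431 to 701 CPM in basal libraries, with a log2 fold change of -0.07 ± 0.15 (SE, 95% interval -0.39 to 0.24). GBE1 (ENSCAFG00000007846), the branching enzyme, ranged from 38.0 to 81.3 CPM (median 54.3) in insulin libraries and from 28.2 to 96.2 CPM in basal libraries, with a log2 fold change of -0.16 ± 0.21 (SE, 95% interval -0.61 to 0.29). UGP2 (ENSCAFG00000003137), which makes the sugar donor, ranged from 238 to 461 CPM (median 316) in insulin libraries and from 217 to 484 CPM in basal libraries, with a log2 fold change of 0.03 ± 0.16 (SE, 95% interval -0.31 to 0.37). For each of these genes the insulin and basal ranges overlapped. None passed the threshold, and the intervals place the insulin difference of GYG1 and UGP2 within 0.39 on the log2 scale in either direction.

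PYGM (ENSCAFG00000014281), the phosphorylase, lay on the low side of basal in each pairing. Dog 2 had 13926, 15089 and 9905 CPM in insulin samples 1, 2 and 3, against 16076 CPM in the basal library. Dog 3 had 10443 and 9912 CPM in insulin samples 1 and 2, against 11636 CPM in the basal library. Dog 4 had 12559 and 12545 CPM in insulin samples 1 and 2, against 12613 CPM in the basal library. All 7 insulin libraries were below the basal library of their own dog, a pattern that 3.47% of all genes tested shared, but in dog 4 they were within 1% of it. The log2 fold change was -0.18 ± 0.16 (SE, 95% interval -0.53 to 0.17) and did not pass. STBD1 (ENSCAFG00000008624), the glycogen-binding protein, ranged from 216 to 360 CPM (median 264) in insulin libraries and from 208 to 322 CPM in basal libraries, with a log2 fold change of 0.03 ± 0.15 (SE, 95% interval -0.29 to 0.35).

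**Figure D3:**
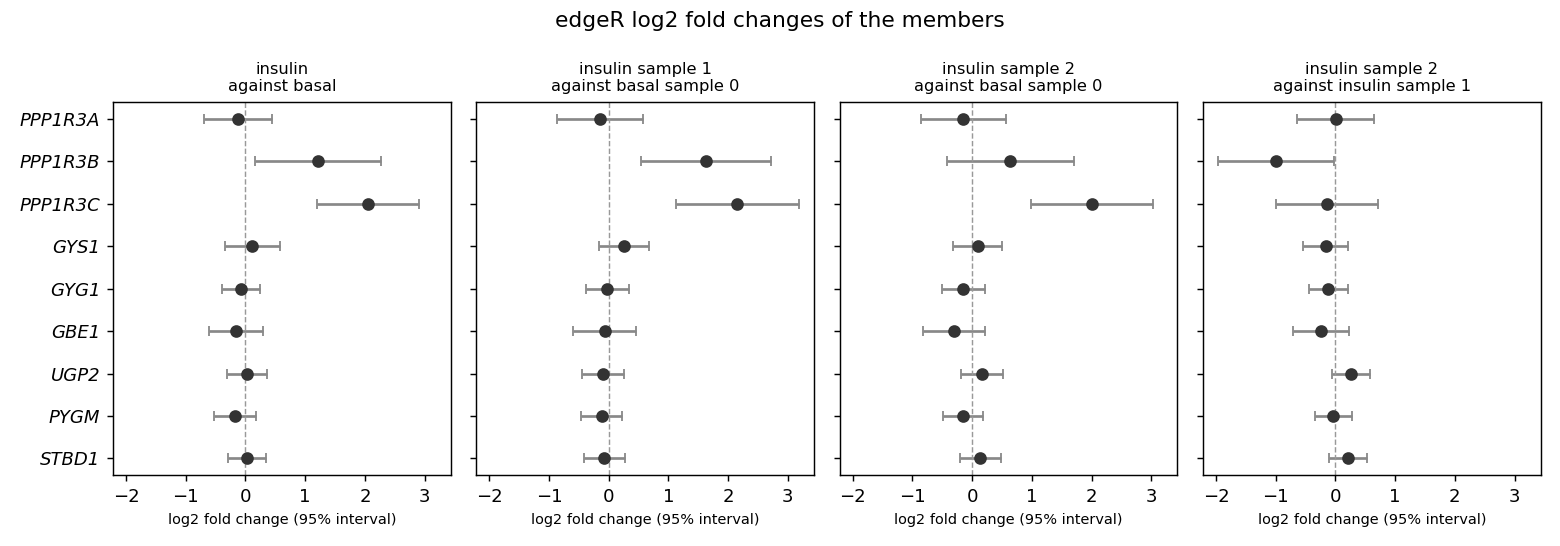
edgeR log2 fold change (points) with its 95% interval (bars) for the 9 tested members in 4 comparisons, the first-named group over the second. PPP1R3C lies near 2 in each of the 3 comparisons with basal, while the enzyme genes and STBD1 lie between -0.31 and 0.26 in all 4.

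Over the 9 tested members, edgeR called 0 for insulin against basal, beside 20 of all 14197 genes (0.141%), of which 4 were higher (0.0282%) and 16 lower (0.113%). At an unadjusted p under 0.05 there were 2 members, PPP1R3B and PPP1R3C, both higher, beside 583 of all genes (4.11%), of which 240 were higher (1.69%). DESeq2 called 1 member, PPP1R3C, beside 103 of the 25207 genes it fitted (0.409%). The median log2 fold change was 0.03 over the tested members and -0.00 over all genes tested. The 20 calls became 6 without the dog block, with 0 members called. Without the filter on low counts, edgeR called 140 of 25207 genes (0.555%), with PPP1R3B and PPP1R3C among them (adjusted p = 6.53e-06 and 1.46e-16). Their log2 fold changes stayed at 1.21 and 2.06. The SE fell from 0.49 to 0.21 for PPP1R3B and from 0.40 to 0.23 for PPP1R3C. The low p values thus came with a smaller SE and not with a larger difference. Other changes in the unfiltered fit may add to them and were not separated from the SE. Unfiltered, edgeR called 0 members for sample 1 against basal and 0 for sample 2 against basal.

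Insulin sample 1 against basal compared that set of biopsies with the basal libraries, in a fit over all 13 libraries. PPP1R3C averaged 347 ± 52.1 CPM in insulin sample 1 (SD, n = 4) and 85.2 ± 73.7 CPM in basal libraries (SD, n = 3). Its edgeR log2 fold change was 2.15 ± 0.47 with an adjusted p of 0.450, and it was 2.08 without dog 1 sample 2. PPP1R3B averaged 348 ± 18.6 CPM in insulin sample 1 (SD, n = 4) and 119 ± 44.3 CPM in basal libraries (SD, n = 3). Here the edgeR estimate was 1.63 ± 0.50 on the log2 scale with an adjusted p of 0.983, and it was 2.40 without the basal library of dog 2, 2.26 without the whole of dog 2 and 1.49 without dog 1 sample 2. Its 4 values in sample 1, from 333 to 375 CPM, were all above the basal range, as were those of 1.72% of all genes tested, and differed 1.13-fold from lowest to highest. The other 7 tested members had log2 fold changes from -0.15 to 0.25. edgeR called 0 of 9 members and 0 of 14629 genes (0%), with 2 members and 438 genes (2.99%) at an unadjusted p under 0.05, and DESeq2 called 77 of 25207 genes (0.305%), PPP1R3C among them. For PPP1R3C the log2 fold change was 3.12 (edgeR adjusted p = 0.00370) without the basal library of dog 2 and 3.14 (adjusted p = 0.0201) without the whole of dog 2.

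Insulin sample 2 against basal gave a like value for PPP1R3C and a lower one for PPP1R3B. PPP1R3C averaged 309 ± 70.9 CPM in insulin sample 2 (SD, n = 4), and edgeR put it at 2.01 ± 0.46 over basal on the log2 scale with an adjusted p of 0.375, and at 2.16 without dog 1 sample 2. PPP1R3B averaged 194 ± 126 CPM in insulin sample 2 (SD, n = 4), and edgeR put it at 0.64 ± 0.48 over basal on the log2 scale with an adjusted p of 0.955. This estimate was 0.91 without dog 1 sample 2, 1.29 without the basal library of dog 2, 1.36 without the whole of dog 2, 0.16 without the basal library of dog 3 and 0.04 without the whole of dog 3. Its 4 values were 310 and 294 CPM in dogs 3 and 4, and 69.9 and 101.1 CPM in dogs 1 and 2. The other 7 tested members had log2 fold changes from -0.31 to 0.16. edgeR called 0 of 9 members and 7 of 14629 genes (0.0479%), of which 2 were higher (0.0137%) and 5 lower (0.0342%), with 1 member (PPP1R3C) and 724 genes (4.95%) at an unadjusted p under 0.05, and DESeq2 called 1 member, again PPP1R3C, beside 142 of 25207 genes (0.563%). For PPP1R3C it was 2.95 (edgeR adjusted p = 0.00377) without the basal library of dog 2 and 2.93 (adjusted p = 0.0282) without the whole of dog 2, both as log2 fold changes. The comparisons of samples 1 and 2 with basal share the same 3 basal libraries.

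Insulin sample 2 against insulin sample 1 compared the biopsies under insulin in 4 dogs. PPP1R3B was lower in sample 2 in each dog, at 0.201, 0.299, 0.827 and 0.883 of its sample 1 level in dogs 1, 2, 3 and 4, and 6.87% of all genes tested were lower in all 4 dogs. Its log2 fold change was -0.99 ± 0.44 (SE, 95% interval -1.96 to -0.02), with an unadjusted p of 0.0465 and an adjusted p of 0.902 by edgeR, and it was -0.58 without dog 1 sample 2. For PPP1R3C the ratios of sample 2 to sample 1 were 0.561, 0.952, 1.116 and 1.02 in dogs 1, 2, 3 and 4, and the log2 fold change was -0.14 ± 0.39 (SE, 95% interval -0.99 to 0.71), against 0.08 without dog 1 sample 2. Both subunits thus had their lowest ratio in dog 1, whose sample 2 is the library with the high ACTA1 share, and the part of that share in the values was not tested. UGP2 was higher in sample 2 in each dog, by 1.02-fold to 1.44-fold, as were 6.97% of all genes tested, and its log2 fold change was 0.26 ± 0.14 (SE, 95% interval -0.06 to 0.57), or 0.24 without dog 1 sample 2. edgeR called 0 of 9 members and 0 of 14629 genes (0%), with 1 member (PPP1R3B) and 495 genes (3.38%) at an unadjusted p under 0.05, and DESeq2 called 96 of 25207 genes (0.381%) and 0 members.

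Sample 3 was taken as values only. In dog 1 PPP1R3B stood at 295 CPM in sample 3, near its 347 CPM in sample 1, and in dog 2 it stood at 194 CPM, between samples 1 and 2. GYS1 and PYGM had their lowest insulin value of each dog in sample 3, with 259 and 202 CPM for GYS1 and 9199 and 9905 CPM for PYGM in dogs 1 and 2. The share of all genes with this pattern was not counted. The summed level of 8 fast fibre markers was also lowest there, at 47547 CPM in dog 1 and 60854 CPM in dog 2. Its part in the 2 genes was not tested.

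Among the wider set of glycogen genes, 25 of 29 were tested. PPP1R3G and GSK3A were among 3 not matched by symbol, and GYS2, the liver synthase, did not pass the filter, with means of 0.0220 CPM in insulin libraries and 0.0126 CPM in basal libraries. For insulin against basal edgeR called 0 of these 25 in either direction, 0 had an unadjusted p under 0.05, and their median log2 fold change was 0.03. PHKG1 (ENSCAFG00000010171), the catalytic subunit of muscle phosphorylase kinase, had the lowest p, with 122 ± 26.5 CPM in insulin libraries (SD, n = 10) and 172 ± 28.9 CPM in basal libraries (SD, n = 3), a log2 fold change of -0.40 ± 0.19 (SE, unadjusted p = 0.0503). Among those with the next lowest p were the ubiquitin ligase component RBCK1 (-0.15 ± 0.15) and the synthase kinase GSK3B (-0.17 ± 0.18), both as log2 fold changes with SE.

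The same set had 0 called and 0 with an unadjusted p under 0.05 in the other 3 comparisons by edgeR. For sample 1 against basal the lowest p belonged to PHKG1 (-0.44 ± 0.22), the phosphorylase kinase regulatory subunit PHKA1 (0.40 ± 0.36), RBCK1 (-0.13 ± 0.18) and the phosphatase catalytic subunit PPP1CC (-0.12 ± 0.17). For sample 2 against basal, PHKG1 (-0.33 ± 0.22) had the lowest p, and among the next were the phosphoglucomutase PGM1 (0.23 ± 0.19) and RBCK1 (-0.20 ± 0.18). For sample 2 against sample 1 they belonged to PHKA1 (-0.59 ± 0.32), PGM1 (0.29 ± 0.17), the phosphatase catalytic subunit PPP1CA (0.29 ± 0.17) and the phosphatase inhibitor PPP1R1A (0.26 ± 0.18). The subunits of the phosphatase that PPP1R3 proteins bind therefore had no call, with log2 fold changes for insulin against basal of 0.06 for PPP1CA, 0.09 for PPP1CB and -0.04 for PPP1CC.

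The members were also followed across the 13 libraries after each dog was centred on its own mean, as a description of libraries that share dogs and, in part, fibre content. PPP1R3B and PPP1R3C varied together (Pearson r = 0.78 on log2 CPM). Without the 2 libraries farthest from the median of PPP1R3C, the basal libraries of dogs 3 and 4, r was 0.64. Both r values include dog 1 sample 2, where both genes had their lowest insulin value, and r was not recalculated without it. PPP1R3A, GYG1 and GBE1 formed a second set, with r of 0.83 between PPP1R3A and GYG1, 0.82 between PPP1R3A and GBE1 and 0.85 between GYG1 and GBE1. Each of the 3 was at least 0.74 without the 2 farthest libraries, dog 1 sample 2 and dog 4 sample 2. Over the 13 libraries these 3 genes had r of -0.66, -0.63 and -0.60 with the summed level of 4 smooth muscle markers, in the order PPP1R3A, GYG1 and GBE1. UGP2 varied with STBD1 (r = 0.72) and GYS1 with PYGM (r = 0.73), at 0.67 and 0.64 without the 2 farthest libraries of UGP2 and of PYGM. STBD1 had r of 0.70 with the summed muscle fibre markers and UGP2 had 0.46. For STBD1 it was 0.32 without centring. Dog 1 sample 2 had both the highest fibre sum (392909 CPM) and the highest STBD1 (360 CPM), and r was not recalculated without that library. The part of smooth muscle and fibre content in these relations was not tested. The other 30 of the 36 pairs had r of at most 0.44. PPP1R3C had r of 0.17 with PPP1R3A and 0.12 with GYS1. Without centring, r was 0.67 for PPP1R3B with PPP1R3C, 0.68 for GYG1 with GBE1 and 0.64 for GYS1 with PYGM. It was only 0.35 for PPP1R3A with GYG1, 0.34 for PPP1R3A with GBE1 and 0.13 for UGP2 with STBD1. GYG1 with UGP2, among the other 30 pairs, had 0.70 without centring. The sets named here are therefore those of the dog-centred values.

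**Figure D4:**
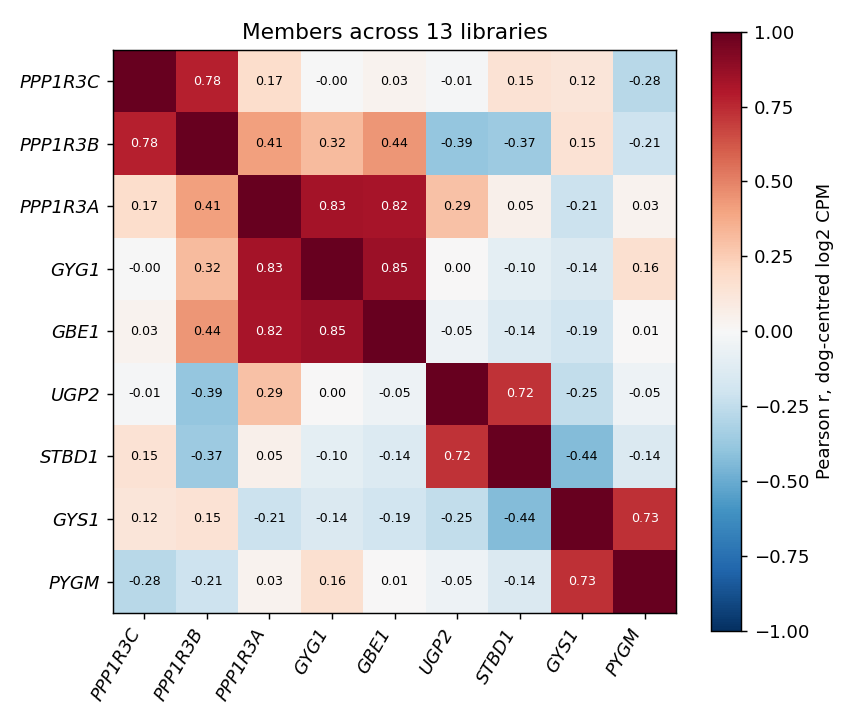
Pearson r (colour and printed value) between the members' log2 CPM over 13 libraries, each dog centred on its own mean. The blocks near the diagonal pair PPP1R3C with PPP1R3B, PPP1R3A with GYG1 and GBE1, UGP2 with STBD1, and GYS1 with PYGM.

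PYGM followed the fast fibre markers. Its dog-centred r with the summed level of 8 fast fibre markers was 0.86 over 13 libraries, and it was 0.83 without the 2 libraries farthest from the median of that sum, dog 1 sample 1 and dog 2 sample 3. With 8 slow fibre markers r was -0.70, but -0.41 without dog 2 sample 0 and dog 2 sample 3, so that relation rests on these 2 libraries. GYS1 had r of 0.75 with the fast markers, and 0.59 without the 2 farthest libraries. PPP1R3C had -0.04 with the fast and -0.04 with the slow markers. Without centring, PYGM had r of 0.83 with the fast and -0.35 with the slow markers. GYS1 then had 0.43 with the fast markers, and PPP1R3C had 0.04 with the fast and -0.28 with the slow markers. The fast fibre sum was 47547 to 89228 CPM (median 61039) in insulin libraries and 54292 to 91069 CPM (median 59301) in basal libraries, and the slow fibre sum was 23893 to 50221 CPM in insulin libraries and 21992 to 57395 CPM in basal libraries. Both sums overlapped between the states and 0 markers of either list were called. The part of fibre content in the values of PYGM and GYS1 was not tested.

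**Figure D5:**
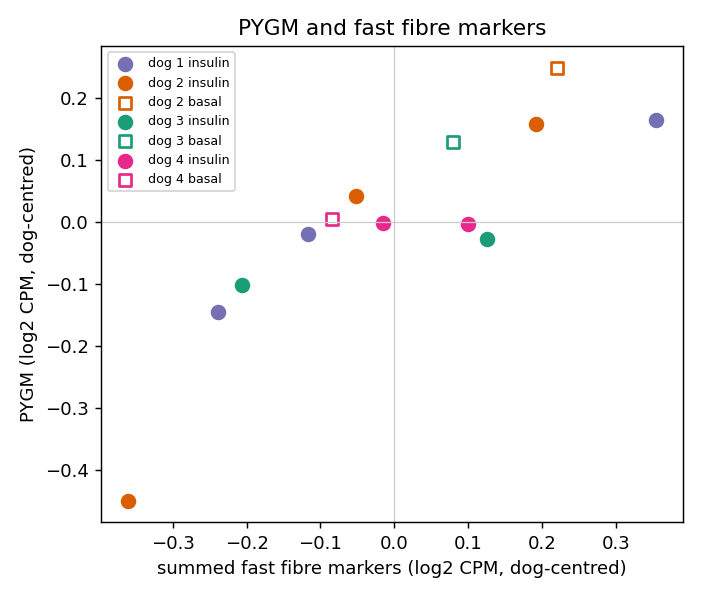
PYGM (log2 CPM) against the summed level of 8 fast fibre markers (log2 CPM), each dog centred on its own mean, with filled circles for insulin and open squares for basal libraries. Dog 2 sample 3 lies lowest on both axes, and r is 0.86 over the 13 libraries.

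Other cell types were also followed beside the subunits. The summed level of 7 neutrophil markers, of which CAMP was at 0, was 23.4 to 65.3 CPM in insulin libraries and 31.2 to 74.7 CPM in basal libraries. For 5 of 6 adipocyte markers found in the table it was 15.8 to 45.4 CPM in insulin libraries and 10.9 to 89.5 CPM in basal libraries, and for 4 smooth muscle markers it was 64.0 to 201 CPM in insulin libraries and 66.7 to 155 CPM in basal libraries. For 6 of 9 red blood cell markers found it was 35.9 to 51.0 CPM in insulin libraries and 34.7 to 45.7 CPM in basal libraries. All of these ranges overlapped between the states and 0 markers were called, while the median log2 fold change for insulin against basal was -1.05 over 5 tested neutrophil markers, -0.90 over 4 tested red blood cell markers and 0.65 over 4 smooth muscle markers. Their part in the values of the subunits was not tested.

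The genes whose pattern was most like that of PPP1R3C were taken from 8270 genes with a symbol and a mean log2 CPM of at least 1, by the dog-centred Pearson r over the 13 libraries. They were G0S2, an inhibitor of triglyceride lipase (r = 0.98), the inositol hexakisphosphate kinase IP6K3 (r = 0.98), MID1IP1, a partner of acetyl-CoA carboxylase (r = 0.97), the transcriptional corepressor CBFA2T3 (r = 0.96) and the myogenic factor MYOD1 (r = 0.95). G0S2 averaged 141 ± 23.6 CPM in insulin libraries (SD, n = 10) and 15.7 ± 20.4 CPM in basal libraries (SD, n = 3), with a log2 fold change of 3.57 ± 0.68 (SE, edgeR adjusted p = 0.0912). IP6K3 averaged 89.9 ± 18.6 CPM in insulin libraries (SD, n = 10) and 39.5 ± 18.6 CPM in basal libraries (SD, n = 3), with a log2 fold change of 1.08 ± 0.26 (SE, edgeR adjusted p = 0.209). Of the 5, MID1IP1 and MYOD1 passed the threshold for insulin against basal in edgeR, with adjusted p of 0.0478 and 0.00612. The centring leaves the insulin and basal difference in place, so that any gene with a like difference in the same dogs scores high.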

How the data were processed

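Raw read counts per Ensembl gene, deposited by the authors as whole numbers for 13 libraries, were the base of all values. The same table held a normalized signal, which per the file headers is a normalized read count. It equalled each raw count divided by 1 constant per library, and served only to check the columns. The submitters' processing notes name Bowtie 0.12.2 and CanFam3.1 without a role. The counting program, annotation release and strand setting are not given in the sources used here, so reads of overlapping genes cannot be told apart. No coordinates came with the counts.

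These deposited counts entered edgeR 4.0.16 under R 4.3.3 (filterByExpr, TMM scaling, robust quasi-likelihood fits, Benjamini-Hochberg adjustment over all genes, threshold 0.05). Insulin against basal used dog and stimulation (14197 genes), the other comparisons used dog and sample number (14629 genes). All 13 libraries entered each fit. Dog 1 has no basal library, so it entered insulin against basal only through the spread. In the model with sample number, dog 1 also entered the comparisons with basal through the differences among its insulin samples. Each SE is the absolute log2 fold change over the root of F. CPM were TMM scaled, and log2 CPM used a prior count of 2. The smallest count of a counted member was 1772 in a library, where counting error is 2.38% if each count is a separate read.

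The fits were tested on simulated data. Alternatives were no dog block, median of ratios scaling, no low count filter, DESeq2 1.42.0, sums per dog, and leaving out each library or dog. The libraries of 1 dog come from the same animal, so the dog number pairs them. Deviations from group means had a median r of 0.174 for 15 same-dog pairs and -0.0692 for 47 pairs from different dogs. No 2 libraries agreed within sampling noise (chi-square per gene at least 47.2). All 10 members were named, with up to 4 genes of lowest p from a list of 29 other glycogen genes and the 5 genes most like PPP1R3C. Of these, 1 gene that the rule names is not reported here. Members and lists were chosen with earlier results of these data known.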

Additional observations from a re-analysis of the deposited data

How the results depend on the processing

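Genes called by edgeR for insulin against basal numbered 20 with the dog block, 20 with median of ratios scaling, 6 without the block, 140 without the low count filter, 1 with counts summed per dog, 103 by DESeq2 and 16 without insulin sample 3, a setting chosen after seeing the data. With 1 library or dog left out they numbered 4 to 28, at least 1.5 times fewer without any 1 library of dogs 2 to 4 except the basal library of dog 2, and without dog 3 or dog 4. For sample 1 against basal the count was 0, also 0 without the block, 4 with median of ratios scaling, 16 unfiltered, 77 by DESeq2 and 0 to 8 with a library or dog left out. For sample 2 against basal it was 7, with 0 without the block, 8 with median of ratios scaling, 28 unfiltered, 142 by DESeq2 and 0 to 13 with a library or dog left out. For sample 2 against sample 1 it was 0 by edgeR in every setting and 96 by DESeq2. Members called were 0 in each comparison, except 2 unfiltered for insulin against basal, 1 by DESeq2 in each of the 3 comparisons with basal, and 0 to 1 in those 3 with a library or dog left out, where the 1 was PPP1R3C without dog 2 or its basal library. In sample 2 against sample 1 it was 0 to 0. The replicate block (dog) changed no member's call. Without it the log2 fold change turned to 0.013 for PPP1R3A and -0.094 for UGP2 for insulin against basal, and to -0.0040 for PPP1R3A for sample 2 against sample 1. With a library or dog left out, log2 fold changes crossed 0 for insulin against basal in PPP1R3A (-0.48 to 0.10), UGP2 (-0.078 to 0.17) and STBD1 (-0.036 to 0.13). For sample 1 against basal this held for PPP1R3A (-0.51 to 0.17), GYG1 (-0.10 to 0.078), GBE1 (-0.34 to 0.098), UGP2 (-0.21 to 0.047) and STBD1 (-0.18 to 0.058). For sample 2 against basal it held for PPP1R3A (-0.60 to 0.081) and GYS1 (-0.079 to 0.25), and for sample 2 against sample 1 for PPP1R3A (-0.30 to 0.28), PPP1R3C (-0.42 to 0.083) and PYGM (-0.086 to 0.026). The fold change of PPP1R3C for insulin against basal lay between 1.64 and 3.03 on the log2 scale in these fits. The cause of these changes was not tested. Counting error at the lowest member count was 2.38% if each count is a separate read.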
